A study of Homo sapiens with 8 samples.

Results

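The comparison of the compound 1035 with its solvent DMSO was made in the SupB15 line, which grows as human precursor B lymphoblasts and was derived from a Philadelphia-positive acute leukemia. It was chosen by treatment label and covers 4 of the 8 libraries of the series and all 17394 genes of the deposited count table that sets these 4 libraries side by side. The 1035 group had 2 µM 1035 for 46 h and the DMSO group had DMSO for 46 h, with 2 libraries from independent samples each. All cells were grown in the same medium with 20% serum, and all came from this 1 line. One result below also uses the other 4 libraries, which had 2 µM 1035 for 36 h and then 0.1 µM doxorubicin for 10 h, or 0.1 µM doxorubicin for 10 h alone.

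The series title calls 1035 an inhibitor of histone deacetylases (HDACs). These enzymes remove acetyl groups from histones and from other proteins, and gene regions rich in acetylated histones are usually open to transcription. Inhibitors of the family are known to raise many genes that a cell type keeps low, and at the same time to lower many genes that it transcribes strongly.

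A total of 13766838 and 12088364 reads were counted on genes in the 1035 libraries, against 16266892 and 15612515 in the DMSO libraries. Levels are given in CPM, read counts scaled to a common library size after TMM normalization, so they do not correct for gene length and are compared between libraries only. Calls are from the edgeR quasi-likelihood F-test over the 15876 genes that passed its filter on low counts, with a false discovery rate (FDR) held at 5% by the Benjamini-Hochberg method. The precursor B-cell markers fixed for checking the label were all present, 12 of 12. Of these, 4 were higher and 7 lower, and their summed level was 3569 and 3563 CPM in the 1035 libraries, against 4775 and 4575 CPM in the DMSO libraries. EBF1, a factor that commits cells to the B lineage, lay at 347 and 315 CPM in the 1035 libraries, against 383 and 384 CPM in the DMSO libraries. Nothing in the labels says that the 2 libraries of a treatment differ in batch.

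1035 library 2 stood apart among genes with almost no reads. There were 364 genes with at least 10 reads in that library and at most 1 read in each of the other 3, and 0 genes with the like pattern in any of the other libraries. Among these 364 genes, the median number of reads in 1035 library 2 was 12, and 0 of them entered the test. The mitochondrial transcript MT-ND6 lay at 25.3 CPM in 1035 library 1 and 187 CPM in 1035 library 2, against 29.9 and 29.3 CPM in the DMSO libraries (adjusted p = 0.40, edgeR). A gene was therefore called opened only where both 1035 libraries showed it, and values without 1035 library 2 stand beside many of the results on lists and low genes. The source of these reads was not tested.

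After 1035, 4120 of the 15876 tested genes (26.0%) were higher and 4262 (26.8%) were lower. The changes of at least 2-fold were less even, with 1137 genes higher (7.16%) and 352 lower (2.22%). The median log2 fold change of all genes was 0.00. Scaling by library totals in place of TMM moved that median to 0.07 and the split to 4911 higher and 3422 lower. Without 1035 library 2, 3942 genes were called higher and 4047 lower. An adjusted p under 0.05 stood beside 6503 genes in the authors' deposited table, and 6488 of these were among the 8382 called here. DESeq2 run here on the same counts called 2910 genes higher and 3132 lower.

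The direction went with how strongly a gene was expressed. Tested genes were divided into 10 equal groups by mean level. In the lowest group, with means over the 4 libraries of 0.415 to 1.17 CPM, the median log2 fold change was 0.23, and 300 genes were at least 2-fold higher and 84 at least 2-fold lower. In the highest group, with means of 148 to 4224 CPM, it was -0.12, and 50.6% of genes were called lower and 21.2% higher. Without 1035 library 2 these medians were 0.21 and -0.11. Of the 1137 genes at least 2-fold higher, 917 had a mean under 10 CPM and 16 a mean of at least 100 CPM. Of the 352 at least 2-fold lower, 219 also had a mean under 10 CPM. Low genes enter the test only with enough reads in 2 libraries, so the lowest group does not describe genes below that level.

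**Figure D1:**
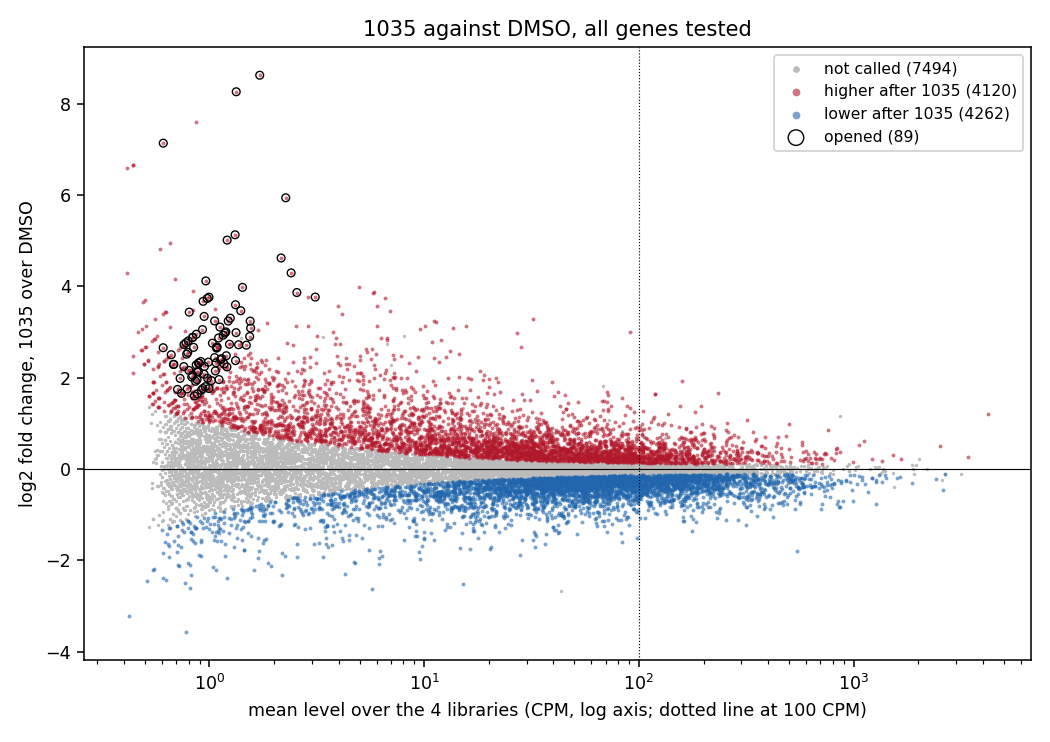
Log2 fold change of 1035 over DMSO against the mean level over the 4 libraries (CPM, log axis) for the 15876 tested genes, with the 4120 genes called higher in red, the 4262 called lower in blue, the others in grey and the 89 opened genes ringed. The largest fold changes upward lie at low levels, and right of the dotted line at 100 CPM more genes are called lower than higher.

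**Figure D2:**
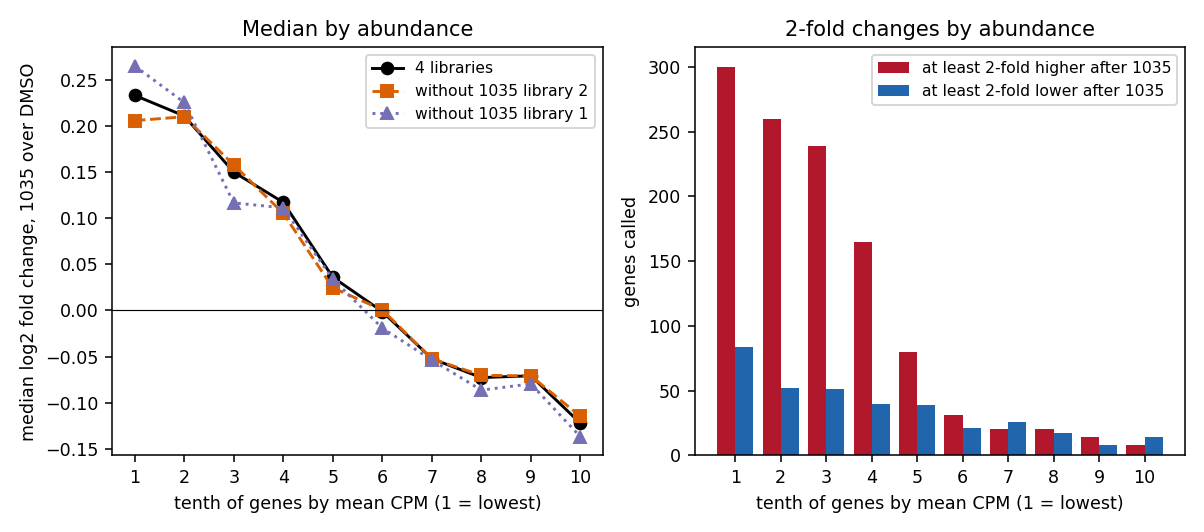
Left, median log2 fold change of 1035 over DMSO in each of 10 equal groups of tested genes by mean CPM, with all 4 libraries and with either 1035 library left out. Right, the number of genes called at least 2-fold higher (red) or lower (blue) in each group, with 300 and 84 in the lowest and 8 and 14 in the highest.

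Among protein-coding genes, 3504 of 12021 tested were higher (29.1%) and 3768 lower (31.3%). Long non-coding RNAs had more genes higher than lower, 348 of 1729 (20.1%) against 220 (12.7%). Their median log2 fold change was 0.13 (0.15 without 1035 library 2). The small and structured RNAs had 24 of 359 higher (6.7%) and 52 lower (14.5%), with a median of -0.15. All of these shares lie under those of all genes tested, 26.0% higher and 26.8% lower. Shares among genes of like level were not compared. Gene length, recovered from the deposited counts and FPKM, also moved with the direction. Of 5 equal groups of coding genes by length, the shortest had a median log2 fold change of -0.07 and the longest of 0.08, and with genes of at least 10 CPM alone these were -0.12 and 0.04. Under library totals the shortest group had a median of 0.00 and the longest of 0.15.

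Genes that were nearly silent in DMSO and expressed after 1035 formed the first set of interest. A gene was called opened if it had under 0.5 CPM in both DMSO libraries, at least 1 CPM in both 1035 libraries and passed the test. There were 89 opened genes, and 17 genes met the mirror image, here called closed. Since the levels are part of these definitions, the counts are descriptions, and no DMSO value of an opened gene can reach its 1035 values. Of 225 tested genes under 0.5 CPM in both DMSO libraries, 210 were called higher. Genes that low in DMSO pass the filter on low counts only through their 1035 libraries. Leaving out 1035 library 2 gave 107 opened and 46 closed genes, and leaving out 1035 library 1 gave 407 opened and 27 closed. Without either DMSO library 7 genes were closed. Of the libraries left out in turn, 1035 library 1 thus moved the number of opened genes most. Without it, 1035 library 2 alone stands for 1035, the library with the 364 genes described above. The part of such reads in this change was not tested. Of the 89, 63 were higher in 1035 library 2 than in library 1, and 49 had an adjusted p under 0.05 in the authors' deposited table. The opened genes stayed at low levels: their mean in 1035 had a median of 1.74 CPM and a highest value of 5.80 CPM. They comprised 69 protein-coding genes, 17 long non-coding RNAs, 2 pseudogenes and 1 gene with no match in the reference annotation.

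CARNS1, which encodes carnosine synthase, had 5.56 and 6.04 CPM in the 1035 libraries, against 0.379 and 0.458 CPM in the DMSO libraries. ASB2, the substrate-binding part of a ubiquitin ligase, had 5.06 and 4.51 CPM after 1035, against 0.379 and 0.262 CPM in DMSO. The 2 values of each treatment lay close together, and the gap between treatments is part of how both genes were chosen. Their log2 fold changes were 3.76 ± 0.31 and 3.86 ± 0.35 (SE), with adjusted p of 1.4e-13 and 1.7e-12 (edgeR).

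A pair of corepressors of the Groucho family was among the opened genes. TLE2 had 4.34 and 4.59 CPM in the 1035 libraries, against 0.126 and 0 CPM in the DMSO libraries. TLE6, a shorter relative that acts in the early embryo, had 33 and 37 reads in the 1035 libraries, or 2.35 and 2.98 CPM, against 0 reads in both DMSO libraries. With a floor of 3 reads per DMSO library, its mean level was at least 13.8-fold higher after 1035. Both genes also passed the test in the libraries treated with doxorubicin, as given below.

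The tumour antigen PRAME, normally a testis transcript, had 42 and 48 reads in the 1035 libraries, or 2.99 and 3.87 CPM, against 0 reads in both DMSO libraries. Its mean was at least 17.8-fold higher after 1035. FCER2, which encodes the low-affinity IgE receptor CD23 of mature B cells, had 2.92 and 2.66 CPM after 1035, against 0.316 and 0.327 CPM in DMSO. SECTM1, which encodes a ligand of the T-cell surface protein CD7, had 2.07 and 3.38 CPM after 1035, against 0.316 and 0.393 CPM in DMSO. For these 3 genes too, the gap between DMSO and 1035 follows from the definition of opened.

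Genes of other tissues stood beside them, and in bulk RNA more RNA per cell and more cells of another kind cannot be told apart. CACNA1A, the pore subunit of a calcium channel of nerve terminals, had 1.99 and 3.38 CPM after 1035, against 0.126 and 0.196 CPM in DMSO. MFAP2, a component of extracellular microfibrils, had 2.64 and 2.98 CPM after 1035, against 0.379 and 0.196 CPM in DMSO. Of the non-coding RNAs, LINC00173 had 4.27 and 4.03 CPM after 1035, against 0.0632 and 0.262 CPM in DMSO. RNF219-AS1, an antisense RNA, had 4.56 and 4.59 CPM after 1035, against 0.190 and 0.262 CPM in DMSO. Whether strand was used in read counting is not stated, so reads of this RNA and of its partner gene cannot be told apart. The log2 fold changes of these 4 genes ran from 3.24 ± 0.43 to 4.62 ± 0.43 (SE).

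**Figure D3:**
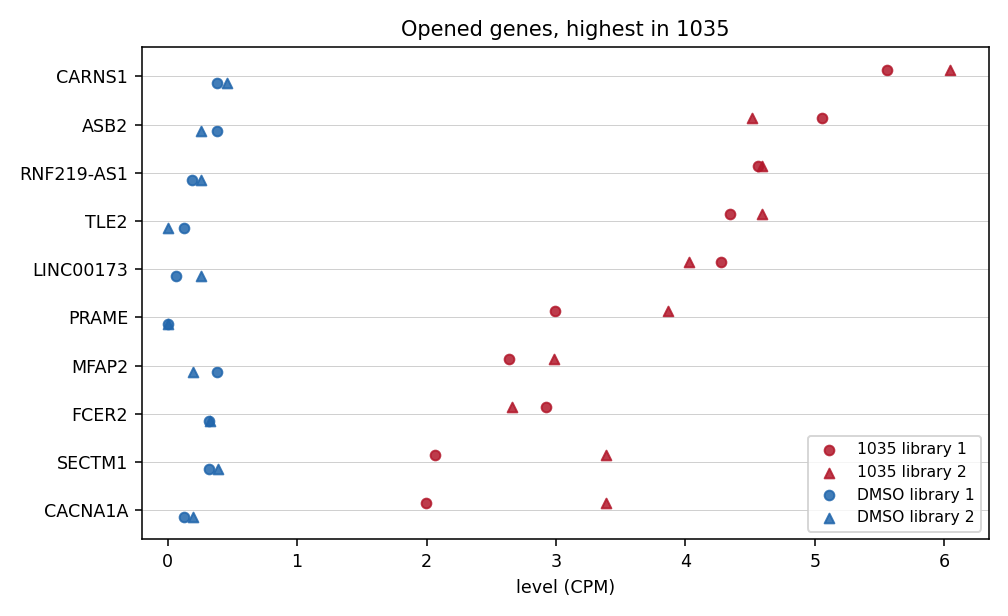
Level in CPM of the 10 opened genes with the highest mean after 1035, with 1 point per library (red, 1035; blue, DMSO; circles, library 1; triangles, library 2). All 1035 points lie at 1.99 CPM or more and all DMSO points at 0.458 CPM or less, and the definition of opened requires a gap.

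The boundary of the set was gradual. FANK1, just inside, had 1.07 and 1.05 CPM after 1035, against 0.190 and 0.131 CPM in DMSO. ICAM5, just outside, had 0.997 and 1.21 CPM after 1035, against 0.379 and 0.327 CPM in DMSO. With a limit of 0.25 CPM in DMSO 18 genes were opened, and with at least 2 CPM in both 1035 libraries 14 were.

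Of the 309 genes with 0 reads in both DMSO libraries, 250 also had 0 reads in 1035 library 1, and 22 had at least 3 reads in both 1035 libraries. By mean level after 1035, the first 5 were PRAME, MT-TL1, TLE6, IGFN1 and DMKN. MT-TL1, a mitochondrial transfer RNA, had 3 and 71 reads in 1035 libraries 1 and 2, and IGFN1, a gene of skeletal muscle, had 2 and 59. DMKN, an epidermal gene, had 10 and 34 reads and passed the test (adjusted p = 1.2e-04, edgeR). MT-TL1, IGFN1 and DMKN thus had most of their reads in 1035 library 2. In the mirror image, 1 gene had 0 reads in both 1035 libraries, CTB-119C2.1, with 10 and 6 reads in the DMSO libraries. Every gene in the table has at least 10 reads in some library, so genes silent in all 4 are not covered.

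The same measure was taken in libraries that had no part in the choice, those of 1035 then doxorubicin against doxorubicin alone. Of the 89 opened genes, 71 were called higher there and 0 lower, 9 were tested and not called, 8 did not pass its filter and 1 was not in its table. In that comparison 22.8% of 15598 tested genes were higher. A gene near-silent after doxorubicin alone enters that test only if the combination raises it, so the 71 are read against all 89. ASB2 had a log2 fold change of 3.90 there, TLE2 of 3.37, TLE6 of 2.17 and CACNA1A of 2.01. That of PRAME was 5.31, but against 0 and 0.163 CPM in the doxorubicin libraries, so its size is uncertain. LGALS4, a gut lectin, had -0.57 (adjusted p = 0.31, edgeR). Times and drug differ from those of 1035 alone.

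Of the 17 closed genes, 8 were long non-coding RNAs, 3 pseudogenes and 3 had no match in the annotation. Among all 15876 tested genes these classes held 1729, 1120 and 625. Their shares among genes of like low level were not compared. The 3 coding genes were TYMP, UGT2B17 and GPX8, singled out here after their values were seen. UGT2B17, an enzyme that conjugates steroid hormones with glucuronic acid, had 0.427 and 0.322 CPM after 1035, against 1.52 and 1.31 CPM in DMSO. TYMP, which encodes thymidine phosphorylase, had 0.214 and 0.403 CPM after 1035, against 1.45 and 1.11 CPM in DMSO. The closed genes highest in DMSO were RP4-800J21.3, AC089999.1, C6orf3, LINC00163 and RP11-10O17.1, at 1.41 to 1.77 CPM on average. AC089999.1 lost its call without DMSO library 1 (adjusted p = 0.14, edgeR) and C6orf3 without DMSO library 2 (0.15). LINC00163 had 0.143 and 0.0806 CPM after 1035, against 1.39 and 1.51 CPM in DMSO. Of the 17, 8 were tested in the combination against doxorubicin, with 5 lower and 0 higher, and the other 9 were not tested there. In that comparison 22.0% of 15598 tested genes were lower. A gene near-silent after the combination enters that test only through doxorubicin alone, so the 5 are read against all 17.

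Sequence upstream of 4 genes of this section and the next is shown, with the CG dinucleotides, the sites of DNA methylation, in capitals. Each is the 250 bases before the start in RefSeq (GRCh38.p14), 5′ to 3′ in the direction of the gene. TLE6 and CACNA1A were opened, IGLL1 was the abundant gene with the largest fall in log2 fold change and ITGB7 had one of the largest rises on that scale, and each has 1 start in that table.
TLE6 (chr19:2977314-2977563, plus strand): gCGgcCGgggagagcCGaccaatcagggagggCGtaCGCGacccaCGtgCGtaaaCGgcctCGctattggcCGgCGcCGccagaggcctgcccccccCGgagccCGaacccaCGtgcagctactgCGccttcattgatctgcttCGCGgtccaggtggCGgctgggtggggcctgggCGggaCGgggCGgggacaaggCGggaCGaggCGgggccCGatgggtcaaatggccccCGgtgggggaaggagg
CACNA1A (chr19:13506480-13506729, minus strand): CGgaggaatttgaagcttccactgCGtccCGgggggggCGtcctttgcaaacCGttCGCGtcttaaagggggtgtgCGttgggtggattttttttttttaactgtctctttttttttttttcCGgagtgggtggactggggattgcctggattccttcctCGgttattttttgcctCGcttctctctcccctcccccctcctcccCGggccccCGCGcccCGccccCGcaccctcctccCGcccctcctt
IGLL1 (chr22:23580291-23580540, minus strand): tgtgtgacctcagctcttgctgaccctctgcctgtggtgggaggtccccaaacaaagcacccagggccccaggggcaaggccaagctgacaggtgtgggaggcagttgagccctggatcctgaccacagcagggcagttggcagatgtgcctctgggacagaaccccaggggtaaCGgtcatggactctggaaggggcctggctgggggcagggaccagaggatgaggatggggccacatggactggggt
ITGB7 (chr12:53207252-53207501, minus strand): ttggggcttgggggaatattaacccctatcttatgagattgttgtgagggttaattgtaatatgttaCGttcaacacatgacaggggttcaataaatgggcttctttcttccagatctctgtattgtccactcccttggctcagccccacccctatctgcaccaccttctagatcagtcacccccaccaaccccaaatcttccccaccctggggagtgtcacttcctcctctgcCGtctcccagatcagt
TLE6 holds 28 CG dinucleotides and CACNA1A 17, whereas IGLL1 holds 1 and ITGB7 2, and the median over 6813 promoters of tested coding genes with 1 start is 22.0. At least 1 CG is present in 99.3% of those promoters. Only 54 of the 69 opened coding genes had a promoter in the table (78.3%, under the 80% needed), so a comparison of composition between opened genes and others is void, and these 4 promoters describe themselves alone. No data on binding or methylation were used here.

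Abundant genes formed the other end of the range. A gene was called abundant at a mean over the 4 libraries of at least 100 CPM, and 2627 genes were. Of these, 586 were higher after 1035 (22.3%) and 1237 lower (47.1%), beside 26.0% and 26.8% of all genes tested, and their median log2 fold change was -0.10. With a limit of 50 CPM, 1197 were higher and 2261 lower, and with one of 200 CPM, 207 and 531. Under library totals 767 abundant genes were higher and 997 lower. Changes of at least 2-fold were as rare in both directions, with 16 genes each. The abundant genes called lower summed to 279500 CPM in 1035 and 358800 CPM in DMSO, and those called higher to 160700 CPM in 1035 and 123200 CPM in DMSO.

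IGLL1 encodes part of the surrogate light chain of the pre-B cell receptor. It had 220 and 263 CPM in the 1035 libraries, against 858 and 827 CPM in the DMSO libraries, the most negative log2 fold change among abundant genes at -1.80 ± 0.06 (SE). ODC1, the first enzyme of polyamine synthesis, had 180 and 195 CPM after 1035, against 439 and 442 CPM in DMSO. PHGDH, the first enzyme of serine synthesis, had 95.9 and 104 CPM after 1035, against 224 and 214 CPM in DMSO. Their log2 fold changes were -1.23 ± 0.05 and -1.13 ± 0.06 (SE).

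RBM3, an RNA-binding protein known for its induction by mild cold, had 182 and 182 CPM after 1035, against 394 and 397 CPM in DMSO. WDFY4, a protein that cross-presenting dendritic cells of mice need, had 101 and 101 CPM after 1035, against 225 and 219 CPM in DMSO. In both genes the values of a treatment differed far less than the treatments did, which goes with their choice by log2 fold change.

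TRIM22, an antiviral ubiquitin ligase, had 116 and 112 CPM after 1035, against 243 and 243 CPM in DMSO. NBN, a sensor of DNA breaks, had 147 and 150 CPM after 1035, against 303 and 324 CPM in DMSO. The replication-dependent histone genes HIST1H2AB and HIST1H2BO had log2 fold changes of -1.37 ± 0.06 and -1.17 ± 0.06 (SE), and 50-base reads may be shared among such similar genes. All of these genes were chosen among called genes for the lowest log2 fold changes, and their adjusted p were at most 1.2e-19 (edgeR).

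The largest fall in CPM was that of HSPA8, the constitutive HSP70 chaperone, with 2100 and 2288 CPM in the 1035 libraries, against 3024 and 2999 CPM in the DMSO libraries. This is a log2 fold change of only -0.46 ± 0.05 (SE). After it came HIST1H1B, a linker histone, with 912 and 975 CPM in 1035 and 1638 and 1570 CPM in DMSO. IGLL1, HIST1H3B and EIF4G2 followed. EIF4G2, a translation initiation factor used when cap-dependent initiation is low, had 609 and 619 CPM after 1035, against 1116 and 1073 CPM in DMSO.

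Among abundant genes that rose, BMF, a pro-apoptotic member of the BCL2 family, had the highest log2 fold change at 1.93 ± 0.06 (SE), with 257 and 245 CPM after 1035 and 65.5 and 66.7 CPM in DMSO. GSN, the actin-severing protein gelsolin, had 360 and 353 CPM after 1035, against 110 and 115 CPM in DMSO. VCL, which encodes vinculin and links adhesion sites to actin, had 149 and 146 CPM after 1035, against 61.7 and 60.5 CPM in DMSO. ITGB7, the beta chain of the integrins that direct lymphocytes to the gut, had 184 and 176 CPM after 1035, against 56.7 and 58.1 CPM in DMSO.

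Signalling genes were also among them. PIK3C2B, a class II phosphoinositide kinase, had 185 and 176 CPM after 1035, against 57.2 and 59.2 CPM in DMSO. SMAD3, which carries TGF-beta signals to the nucleus, had 237 and 212 CPM after 1035, against 87.5 and 84.8 CPM in DMSO. SESN3, a stress-induced inhibitor of the growth kinase complex mTORC1, had 278 and 238 CPM after 1035, against 103 and 114 CPM in DMSO. The non-coding gene TCL6 had 296 and 268 CPM after 1035, against 106 and 110 CPM in DMSO. These 8 risen genes were chosen among called genes for the highest log2 fold changes. Their adjusted p of at most 1.7e-15 (edgeR) and the lack of overlap between treatments go with that choice.

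The largest rise in CPM was that of MALAT1, a nuclear non-coding RNA, with 6505 and 5288 CPM in the 1035 libraries, against 2551 and 2551 CPM in the DMSO libraries. The difference of 3346 CPM is larger than the spread of 861 CPM (SD) between the 1035 libraries (adjusted p = 8.1e-07, edgeR). PRDX1, a peroxidase that removes hydrogen peroxide, had 3079 and 2887 CPM after 1035, against 2075 and 2100 CPM in DMSO. EEF2, the elongation factor that moves the ribosome along the mRNA, had 3585 and 3804 CPM after 1035, against 3139 and 3042 CPM in DMSO. The cytoskeletal GTPase gene SEPT9 and the kinase gene BMP2K were the other 2, with rises of 464 and 437 CPM.

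**Figure D4:**
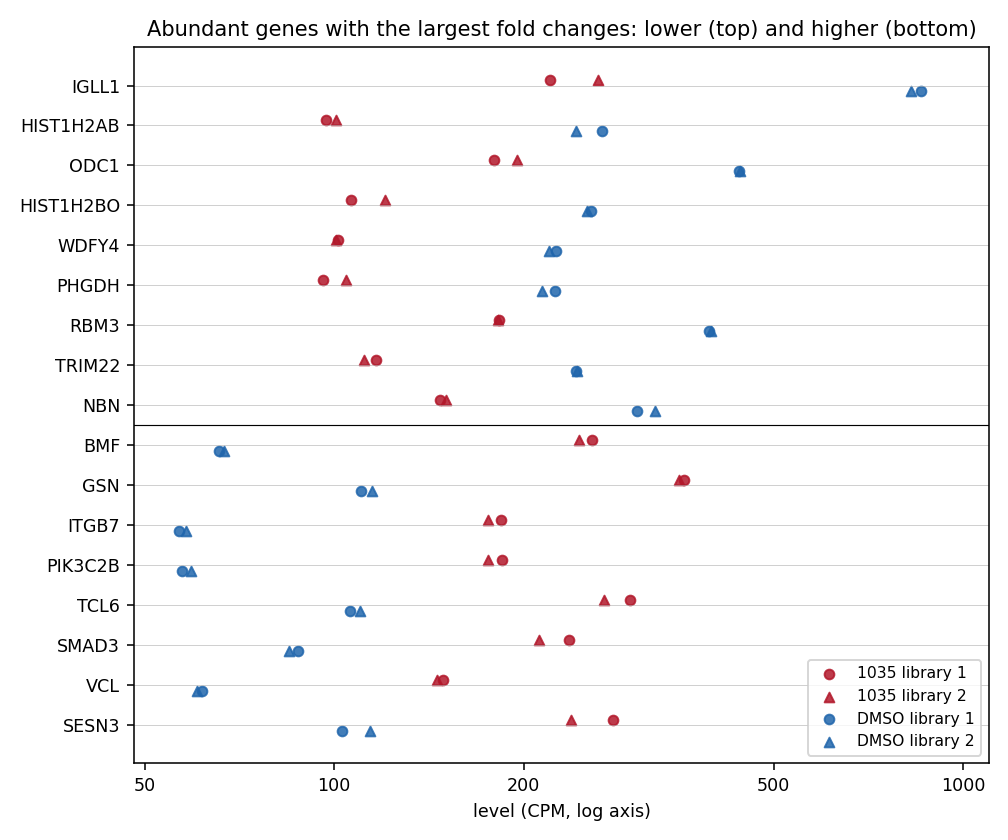
Level in CPM (log axis) of the abundant genes with the most negative (above the line) and the 8 most positive (below it) log2 fold changes, with 1 point per library (red, 1035; blue, DMSO; circles, library 1; triangles, library 2). In each gene both 1035 points lie on the same side of both DMSO points, which goes with the choice by log2 fold change among called genes.

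Functions outside the cell cycle and NF-kB were described with 49 gene lists. More members were higher than lower in 28 lists and more were lower in 19, and 2 had as many of each. Of all genes tested, 26.0% were higher and 26.8% lower, and the median of all genes was 0.00. These shares alone are not enough to read a list against, since they differ by level. Abundance goes with the direction in these data, so the median level of tested members is given for many lists. The median of all tested genes was 23.1 CPM. Of tested genes with means of 5.935 to 12.95 CPM, 34.3% were higher and 19.3% lower. At 55.91 to 84.67 CPM these shares were 23.4% and 40.6%. At 84.67 to 148.2 CPM they were 24.6% and 41.5%, and at 148.2 to 4224 CPM 21.2% and 50.6%. Lists are to be read against genes of like level as well as against all genes. The part of abundance in the lists' counts was not tested.

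**Figure D5:**
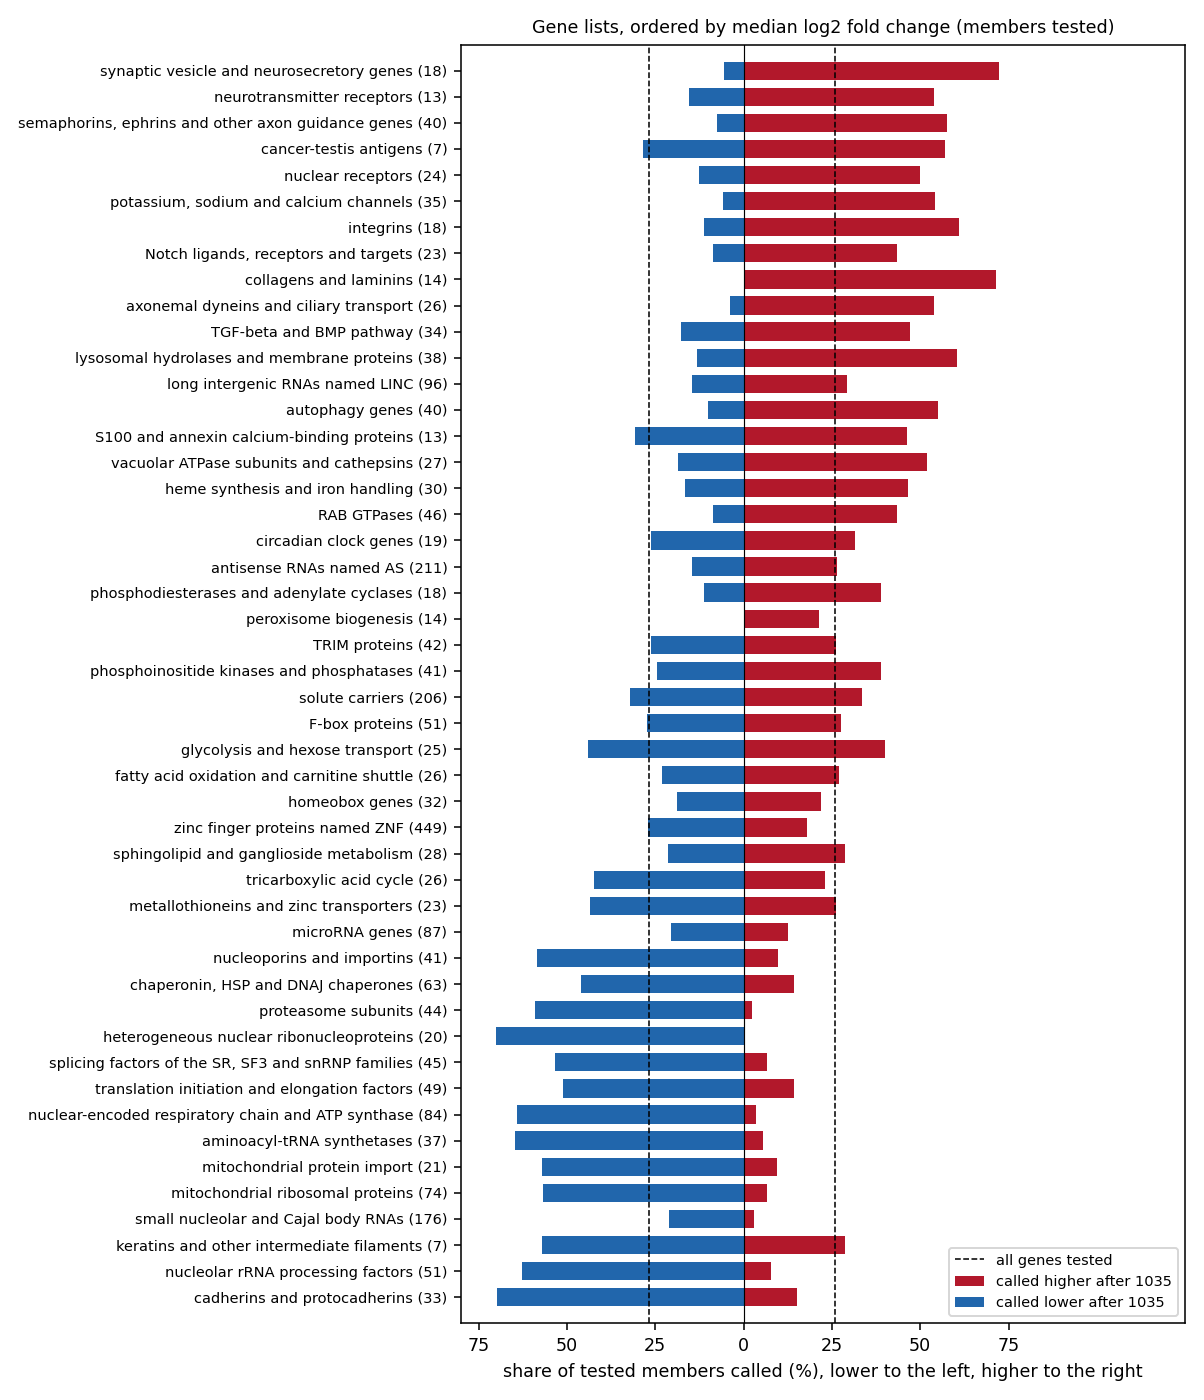
Share of tested members called higher (right, red) and lower (left, blue) after 1035 in each list shown, ordered by median log2 fold change, with the number tested in brackets. Dashed lines mark the shares of all genes tested, 26.0% higher and 26.8% lower. The list of synaptic vesicle and neurosecretory genes has the highest median, 0.90, and that of cadherins and protocadherins the lowest, -0.50.

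Genes of the neuronal and secretory surface were more often higher than lower. Of 18 tested synaptic vesicle and neurosecretory genes, out of 25 in the table, 13 were higher and 1 lower, with a median log2 fold change of 0.90 and a median level of 6.62 CPM (10 and 0, and 0.70, without 1035 library 2). DNM1, the dynamin that pinches off synaptic vesicles, had 11.3 and 12.3 CPM after 1035, against 1.83 and 1.37 CPM in DMSO. SYT11, a synaptotagmin of vesicle traffic, had 3.13 and 2.42 CPM after 1035, against 1.01 and 0.654 CPM in DMSO. SCG5, a chaperone of a prohormone convertase, was the member that fell, with 1.28 and 0.806 CPM after 1035 and 1.77 and 2.16 CPM in DMSO, a call lost without 1035 library 2 (adjusted p = 0.23, edgeR) and without DMSO library 1 (0.072) or 2 (0.26).

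Of 35 tested potassium, sodium and calcium channel genes, out of 53 in the table, 19 were higher and 2 lower (median 0.42, median level 5.59 CPM; 18 and 2, and 0.29, without 1035 library 2). Without 1035 library 1, 45 members passed the filter, 27 of them higher, with a median of 0.73, or 0.48 over the same 35. SCN3A, a neuronal sodium channel, had 5.70 and 3.63 CPM after 1035, against 1.01 and 0.720 CPM in DMSO, next to CACNA1A above. The 2 lower genes were KCNQ5 and KCNK12. KCNQ5, a slowly opening potassium channel, had 14.5 and 14.4 CPM after 1035, against 43.9 and 41.2 CPM in DMSO. Of 13 neurotransmitter receptors, out of 25 in the table, 7 were higher and 2 lower, with fewer calls by DESeq2 (2 and 2), 6 and 2 without 1035 library 2 and 4 and 2 without DMSO library 2.

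Guidance and adhesion genes followed the same direction in most families. Of 40 tested semaphorins, ephrins and related axon guidance genes, 23 were higher and 3 lower (median 0.47, median level 7.15 CPM; 20 and 4, and 0.37, without 1035 library 2). PLXNB3, a semaphorin receptor, had 1.92 and 2.34 CPM after 1035, against 0.379 and 0.131 CPM in DMSO. The lower members PLXNA2 and SLIT2 were expressed more strongly, PLXNA2 with 25.3 and 26.9 CPM after 1035, against 45.6 and 44.7 CPM in DMSO. Of 18 integrins, 11 were higher and 2 lower (median 0.41, median level 35.6 CPM). ITGB5, a receptor chain for vitronectin, had 11.1 and 12.3 CPM after 1035, against 1.83 and 1.44 CPM in DMSO. ITGA4, the alpha4 chain that pairs with ITGB7, went the other way, with 456 and 418 CPM after 1035 and 602 and 620 CPM in DMSO.

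Of 14 tested collagens and laminins, out of 33 in the table, 10 were higher and 0 lower (8 and 1 without 1035 library 2), with a median of 0.34 at a median level of 5.33 CPM. More members passed the filter with another library left out, 21 without 1035 library 1 with 17 higher and a median of 1.94, 20 without DMSO library 1 with a median of 1.20, and 21 without DMSO library 2 with a median of 0.84. Over the same 14 genes these medians were 0.53, 0.39 and 0.37. With all libraries 19 members did not pass the filter, so the 10 higher are also to be read against all 33. COL9A2, a cartilage collagen, had 9.33 and 9.75 CPM after 1035, against 1.96 and 1.64 CPM in DMSO. Cadherins and protocadherins were the exception among adhesion genes, with 5 of 33 higher and 23 lower (median -0.50, median level 12.5 CPM). Of the 23, 21 belonged to the gamma protocadherin cluster, whose members share their last exons, so their reads cannot be assigned to single genes and the 21 calls are not independent. Of the other 12, 5 were higher and 2 lower. CDH5, the cadherin of endothelial junctions, had 5.34 and 7.98 CPM after 1035, against 1.45 and 1.18 CPM in DMSO. PCDH9, a non-clustered protocadherin, had 59.3 and 55.1 CPM after 1035, against 122 and 115 CPM in DMSO.

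In 3 lists of the lysosome and autophagy, higher members prevailed. Of 38 lysosomal hydrolases and membrane proteins, 23 were higher and 5 lower (median 0.26, median level 40.3 CPM; 22 and 5 without 1035 library 2). LGMN, the lysosomal protease legumain, had 13.0 and 13.4 CPM after 1035, against 2.085 and 2.68 CPM in DMSO. TPP1, a lysosomal peptidase, had 27.5 and 26.3 CPM after 1035, against 8.59 and 11.2 CPM in DMSO. ARSB and IDUA, enzymes that break down glycosaminoglycans, fell, ARSB with 4.13 and 4.19 CPM after 1035 and 15.2 and 14.1 CPM in DMSO.

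Of 40 autophagy genes, 22 were higher and 4 lower (median 0.22, median level 56.2 CPM; 24 and 2 without 1035 library 2). GABARAPL1, which coats autophagosome membranes, had 2.99 and 3.71 CPM after 1035, against 0.126 and 0.589 CPM in DMSO. OPTN, a receptor that brings cargo to them, had 68.9 and 67.8 CPM after 1035, against 26.3 and 23.7 CPM in DMSO. SQSTM1, another cargo receptor, was lower, with 92.5 and 99.2 CPM after 1035 and 112 and 121 CPM in DMSO. Of 27 vacuolar ATPase subunits and cathepsins, 14 were higher and 5 lower (median 0.18, median level 50.5 CPM; 8 and 3 without DMSO library 1). The proton pump subunit gene ATP6V1G2 had 5.20 and 6.04 CPM after 1035, against 1.07 and 1.83 CPM in DMSO, and the cathepsin gene CTSO had 4.49 and 5.16 CPM after 1035, against 13.0 and 13.7 CPM in DMSO.

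Traffic and motility genes also leaned upward. Of 46 RAB GTPases, which direct vesicles between compartments, 20 were higher and 4 lower (median 0.15, median level 27.9 CPM). RAB37, known from secretory granules of mast cells, had 25.9 and 25.2 CPM after 1035, against 7.01 and 5.89 CPM in DMSO. Of 26 axonemal dyneins and ciliary transport genes, out of 35 in the table, 14 were higher and 1 lower (median 0.32; 13 and 1 without 1035 library 2). BBS12, a chaperone-like ciliary gene, had 8.33 and 7.98 CPM after 1035, against 3.85 and 3.86 CPM in DMSO. The 1 lower member, DNAH1, lost its call by DESeq2 (adjusted p = 0.10).

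Among intermediate filaments, 2 of 7 tested genes were higher and 4 lower, with 3 of each without 1035 library 1. NES, the nestin of neural progenitors, had 10.4 and 11.5 CPM after 1035, against 1.01 and 0.458 CPM in DMSO. The nuclear lamina genes parted. LMNA had 1.92 and 2.82 CPM after 1035, against 0.316 and 0.262 CPM in DMSO, and LMNB1 had 325 and 351 CPM after 1035, against 579 and 560 CPM in DMSO. LMNA makes the A-type lamins of differentiated cells and LMNB1 the lamin B1 of most cell types.

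Of 24 nuclear receptors, 12 were higher and 3 lower (median 0.42, median level 16.4 CPM). RXRA, the shared partner of many nuclear receptors, had 5.63 and 5.48 CPM after 1035, against 1.26 and 2.03 CPM in DMSO. NR3C1, the glucocorticoid receptor, was lower, with 280 and 273 CPM after 1035 and 400 and 389 CPM in DMSO. Of 34 genes of the TGF-beta and BMP pathway, 16 were higher and 6 lower (median 0.30, median level 21.1 CPM). The ligand gene BMP2 had 24.0 and 22.3 CPM after 1035, against 5.81 and 5.69 CPM in DMSO. The ligand gene INHBE had 0.570 and 1.61 CPM after 1035, against 4.67 and 3.40 CPM in DMSO.

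Of 23 Notch genes, at a median level of 11.0 CPM, 10 were higher and 2 lower. Their median of 0.35 was 0.15 without 1035 library 2. The ligand gene DLL1 had 1.64 and 1.53 CPM after 1035, against 0.569 and 0.393 CPM in DMSO, and lost its call without DMSO library 2 (adjusted p = 0.058, edgeR). NOTCH1, a receptor, was lower, with 65.1 and 75.7 CPM after 1035 and 106 and 108 CPM in DMSO. Of 41 phosphoinositide kinases, phosphatases and phospholipases, 16 were higher and 10 lower (median 0.04). Beside PIK3C2B above, PIK3R5, a regulatory subunit of the kinase PI3K gamma, had 16.6 and 18.2 CPM after 1035, against 5.62 and 7.13 CPM in DMSO. PIK3CG, the catalytic subunit that PIK3R5 binds, had 118 and 111 CPM after 1035, against 154 and 159 CPM in DMSO.

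DNA-binding families were mixed. Of 449 tested genes named ZNF, ZSCAN or ZKSCAN, 81 were higher (18.0%) and 121 lower (26.9%), and library totals turned this into 113 and 87. Without DMSO library 1 the counts were 51 and 96. Of 32 homeobox genes, 7 were higher and 6 lower, and DESeq2 gave 5 of each. POU2F2, a B-cell factor that binds octamer sites of immunoglobulin promoters, had 6.05 and 7.41 CPM after 1035, against 1.14 and 0.851 CPM in DMSO. Of 19 circadian clock genes, 6 were higher and 5 lower, and DESeq2 gave 4 and 5.

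Lower members prevailed in the lists of gene expression machinery and mitochondria. Of 51 nucleolar factors of ribosomal RNA processing, 4 were higher and 32 lower (median -0.32, median level 81.6 CPM). UTP20, a scaffold of the small-subunit processome, had 95.9 and 91.5 CPM after 1035, against 148 and 156 CPM in DMSO. Of 37 aminoacyl-tRNA synthetases, 2 were higher and 24 lower (median -0.20, median level 107 CPM). WARS2, which charges mitochondrial tryptophan tRNA, had 9.90 and 8.38 CPM after 1035, against 15.5 and 14.4 CPM in DMSO.

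Of 49 translation initiation and elongation factors, 7 were higher and 25 lower (median -0.18, median level 153 CPM). EIF5, which triggers start codon recognition, had 226 and 230 CPM after 1035, against 353 and 358 CPM in DMSO. EIF4E3, a cap-binding relative of eIF4E, went the opposite way, with 9.62 and 9.02 CPM after 1035 and 0.632 and 0.524 CPM in DMSO. The 2 values of either treatment in EIF4E3 differed by less than 1 CPM.

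The same held for RNA processing and nuclear transport. Of 20 heterogeneous nuclear ribonucleoproteins, 0 were higher and 14 lower (median -0.18, median level 228 CPM), although 2 were called higher without 1035 library 2 and 9 lower without DMSO library 1. HNRNPAB had 150 and 159 CPM after 1035, against 282 and 270 CPM in DMSO. Of 45 splicing factors of the SR, SF3 and snRNP families, 3 were higher and 24 lower (median -0.18, median level 100 CPM). U2AF2, which binds the polypyrimidine tract before the 3′ splice site, had 156 and 175 CPM after 1035, against 281 and 279 CPM in DMSO. Of 41 nucleoporins and importins, 4 were higher and 24 lower (median -0.16, median level 149 CPM). NUP214, on the cytoplasmic face of the pore, was higher, with 88.9 and 78.5 CPM after 1035 and 63.8 and 63.5 CPM in DMSO.

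In the mitochondrial lists lower members prevailed, with small changes per gene. Of 84 genes of the nuclear-encoded respiratory chain and ATP synthase, 3 were higher and 54 lower (median -0.20, median level 72.4 CPM). NDUFB2, a subunit of complex I, had 33.0 and 32.1 CPM after 1035, against 58.3 and 60.1 CPM in DMSO. Of 74 mitochondrial ribosomal protein genes, 5 were higher and 42 lower (median -0.23, median level 46.5 CPM). MRPL54 had 11.4 and 11.9 CPM after 1035, against 23.3 and 24.2 CPM in DMSO. Of 21 genes of mitochondrial protein import, 2 were higher and 12 lower (median level 54.65 CPM). TIMM44, which holds the import motor at the inner membrane, had 48.4 and 53.4 CPM after 1035, against 76.3 and 77.3 CPM in DMSO.

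Lower members also prevailed among proteasome and chaperone genes. Of 44 proteasome genes, 1 was higher and 26 lower (median -0.18, median level 105 CPM; 0 and 16 without DMSO library 1). PSMB10, a catalytic subunit of the immunoproteasome, had 67.4 and 69.9 CPM after 1035, against 144 and 144 CPM in DMSO. The 1 higher gene, the assembly chaperone PSMG3, lost its call by DESeq2 (adjusted p = 0.18). Of 63 chaperone genes of the chaperonin, HSP and DNAJ families, 9 were higher and 29 lower (median -0.16, median level 86.5 CPM). HSPD1, the mitochondrial chaperonin, had 397 and 426 CPM after 1035, against 657 and 660 CPM in DMSO. F-box and TRIM genes, which select targets of ubiquitin ligases, had as many members higher as lower, 14 of 51 and 11 of 42 each way, which library totals turned into 17 and 11, and 14 and 9. FBXO32, a muscle-atrophy F-box gene, had 8.19 and 7.33 CPM after 1035, against 2.40 and 2.22 CPM in DMSO.

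Metabolic lists did not share a direction. Of 25 glycolysis and hexose transport genes, 10 were higher and 11 lower, and library totals gave 12 and 9. ENO2, the neuronal enolase, had 8.41 and 8.70 CPM after 1035, against 1.89 and 1.18 CPM in DMSO. HK2 and LDHA, the hexokinase and lactate dehydrogenase typical of fast-growing cells, were lower, LDHA with 247 and 244 CPM after 1035 and 391 and 382 CPM in DMSO. Of 26 genes of the tricarboxylic acid cycle and its feeding steps, 6 were higher and 11 lower, with 3 higher without DMSO library 1 and 2 without DMSO library 2. PCK2, which makes phosphoenolpyruvate in mitochondria, had 38.0 and 39.2 CPM after 1035, against 86.5 and 89.2 CPM in DMSO. Fatty acid oxidation had 7 higher and 6 lower of 26 genes (6 of each without 1035 library 2), and sphingolipid metabolism 8 and 6 of 28 (6 and 7 without 1035 library 1).

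Of 206 tested solute carriers, 69 were higher and 66 lower, and DESeq2 gave 53 of each. SLC6A9, a glycine transporter, had 3.13 and 4.75 CPM after 1035, against 13.3 and 17.2 CPM in DMSO. SLC4A5, a bicarbonate transporter, had 7.27 and 7.01 CPM after 1035, against 1.83 and 1.83 CPM in DMSO. Of 30 genes of heme synthesis and iron handling, 14 were higher and 5 lower (median 0.15, median level 38.6 CPM). ACO1, the cytosolic aconitase that also binds iron-responsive RNA elements, had 43.5 and 39.6 CPM after 1035, against 17.9 and 20.1 CPM in DMSO. TFRC, the transferrin receptor, had 279 and 284 CPM after 1035, against 430 and 420 CPM in DMSO. Of 23 metallothioneins and zinc transporters, 6 were higher and 10 lower, and DESeq2 gave 6 of each. MT1E had 8.48 and 11.0 CPM after 1035, against 19.3 and 15.3 CPM in DMSO.

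The remaining coding lists were short or even. Of 13 S100 and annexin genes, 6 were higher and 4 lower (4 and 3 without DMSO library 2), with ANXA1, an annexin induced by glucocorticoids, at 3.21 and 3.38 CPM after 1035 and 0.821 and 0.982 CPM in DMSO. Of 18 phosphodiesterases and adenylate cyclases, 7 were higher and 2 lower (11 and 3 of 23 without 1035 library 1), with PDE3B, which degrades cyclic AMP, at 45.0 and 43.1 CPM after 1035 and 85.8 and 83.5 CPM in DMSO. Of 14 peroxisome biogenesis genes, 3 were higher and 0 lower. Of 7 cancer-testis genes, out of 10 in the table, 4 were higher and 2 lower (4 and 1 without 1035 library 2). TDRD1, a germline gene of the piRNA pathway, had 11.0 and 9.67 CPM after 1035, against 3.22 and 2.03 CPM in DMSO.

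Non-coding families differed in the balance of higher and lower members. Of 96 tested genes named LINC, 28 were higher (29.2%) and 14 lower (14.6%), with a median of 0.25 at a median level of 3.04 CPM. Of 211 antisense RNAs, 56 were higher (26.5%) and 31 lower (14.7%), with a median of 0.12 at a median level of 3.53 CPM. Among all genes tested, 26.0% were higher and 26.8% lower. Without 1035 library 2 the LINC counts were 25 and 11 and the antisense counts 45 and 33. Without DMSO library 2 the LINC counts were 24 and 9, with a median of 0.39. BAIAP2-AS1 had 10.2 and 10.1 CPM after 1035, against 1.39 and 2.16 CPM in DMSO, and BZRAP1-AS1 had 12.7 and 11.2 CPM after 1035, against 45.2 and 42.5 CPM in DMSO. Of 176 small nucleolar and Cajal body RNAs, 5 were higher and 37 lower (median -0.24), which was 7 and 23 without 1035 library 2 and 3 and 17 without DMSO library 1. With all 4 libraries the shares were 2.84% higher and 21.0% lower, at a median level of 2.25 CPM. Most of these small RNAs lie inside introns of host genes, and reads of both cannot be separated here. Of 87 microRNA genes, 11 were higher (12.6%) and 18 lower (20.7%), at a median level of 1.87 CPM. Their median log2 fold change was -0.14, and -0.02 without 1035 library 2. Without DMSO library 1, 9 were higher and 11 lower of the 98 that passed the filter, and the median turned to 0.10, or -0.03 over the same 87. MIR22HG, a host transcript, had 6.48 and 6.85 CPM after 1035, against 2.09 and 3.53 CPM in DMSO. These counts come from total RNA and describe transcripts of the loci, not mature microRNAs.

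Markers of other cell types were measured as well, since several opened or raised genes belong to other tissues. Of 9 stromal markers, 5 were in the table and 3 were higher, and their summed level was 126 and 141 CPM in the 1035 libraries, against 56.7 and 53.1 CPM in the DMSO libraries. THY1 had 60.8 and 68.6 CPM after 1035, against 29.4 and 27.6 CPM in DMSO, and PDGFRB 63.3 and 67.9 CPM after 1035, against 27.2 and 25.2 CPM in DMSO. COL1A1, a chain of type I collagen and an opened gene, was the other higher marker, with 1.78 and 2.66 CPM after 1035, against 0.126 and 0.327 CPM in DMSO. The defining stromal markers COL3A1, DCN, LUM and FAP were not listed in the table, and COL1A2 had 0 and 0.967 CPM in 1035 and 0 CPM in both DMSO libraries.

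Of 5 endothelial markers, CDH5 and VWF were listed, with sums of 5.41 and 8.94 CPM in 1035, against 1.52 and 1.18 CPM in DMSO. VWF was at most 0.967 CPM in any library. None of the 5 epithelial markers was listed. Of 9 myeloid markers, 5 were listed, with 3 higher, 1 lower and sums of 34.4 and 41.9 CPM in 1035, against 26.6 and 26.4 CPM in DMSO. Of these, ITGAM lost its call as higher without 1035 library 2 (adjusted p = 0.81, edgeR), without DMSO library 2 (0.25) and by DESeq2 (0.18). LYZ lost its call as lower without any 1 of the 4 libraries (0.063 to 0.15, edgeR), under library totals (0.063) and by DESeq2 (0.23).

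Of 8 T and NK markers, 4 were listed, with 2 higher, 1 lower and sums of 70.4 and 76.9 CPM in 1035, against 91.2 and 93.0 CPM in DMSO. CD3D, CD3E, CD2 and CD7 were not listed, while TCF7, a factor of T-cell development, had 13.2 and 12.3 CPM after 1035, against 1.33 and 0.982 CPM in DMSO. LAT, the other higher marker, lost its call without 1035 library 2 (adjusted p = 0.28, edgeR), without DMSO library 2 (0.16) and by DESeq2 (0.16). Of 8 erythroid and megakaryocyte markers, 4 were listed, with sums of 293 and 300 CPM in 1035, against 444 and 432 CPM in DMSO, nearly all TFRC. Of 10 neuronal markers, 4 were listed, with sums of 39.7 and 45.5 CPM in 1035, against 64.3 and 63.2 CPM in DMSO. Of these, MAP2, ENO2 and SYP were higher and TUBB3 lower, and the call on SYP was lost without 1035 library 2 (adjusted p = 0.47, edgeR), without DMSO library 1 (0.25) and by DESeq2 (0.14). The part of other cell types in the raised genes was not tested beyond these values.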

How the data were processed

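Per the labels, RNA came from a Versagene isolation kit, and stranded TruSeq libraries, depleted with Ribo-Zero Gold, were sequenced as single reads of 50 bases on an Illumina HiSeq. Per the submitters' processing notes, the authors used Novoalign 2.08.01, DESeq2 1.4.5 and hg19. Which counter, strand option and annotation were used was not stated. Per the file headers, the authors deposited raw counts per gene, FPKM, log2 fold changes and adjusted p-values. All tests used the deposited counts. The deposited FPKM served, with the counts, to recover gene length, and the authors' log2 fold changes and adjusted p-values served only to count genes in their table.

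Groups came from the sample titles. Genes were filtered with filterByExpr, normalised by TMM and fitted by group by robust quasi-likelihood in edgeR 4.0.16 (R 4.3.3), which left 15876 of 17394 genes, 2 residual degrees of freedom and a common biological coefficient of variation of 3.9%. P-values of the F-test were adjusted over every tested gene (Benjamini-Hochberg). SE is the log2 fold change over the root of F. On simulated counts for this comparison over 15849 genes, the test recovered 99 of 100 genes changed 2-fold and 79 of 100 changed 1.5-fold. There were 6 false calls among 184. Recovery was not split by level, so it was not tested for low or opened genes. Far more genes were called in the data, 8382 of 15876, and the share of false calls was not tested with that many changes. The design text calls the samples of a treatment independent, and chi-square per degree of freedom between them was 3.24 in 1035 and 1.80 in DMSO. Depth of 12088364 to 16266892 reads sets the precision, and floors of 3 reads cover counting error only.

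The gene lists, members and thresholds were chosen with earlier results of these data known. Of the 49 lists, 35 were taken by symbol and 14 written out, and 31 symbols that match a family by name only were removed after values were seen, as were antisense, readthrough and pseudogene entries. Named genes are the 10 opened genes highest in 1035, the 5 highest with 0 DMSO reads, the 5 closed genes highest in DMSO, the abundant genes with the 10 lowest and 8 highest log2 fold changes and 5 largest losses and gains in CPM, the markers, and of the up to 2 highest and 2 lowest list members with a mean of at least 1 CPM those printed. Outside this rule, FANK1 and ICAM5 lie at the edge of the opened set, and LGALS4, MT-ND6 and the coding closed genes were chosen after their values were seen. Genes sharing a symbol (85 symbols, 223 identifiers) were not named. Classes came from GENCODE identifiers, with 723 genes unmatched. Alternatives were DESeq2 1.42.0, its size factors, library totals, other filters, replicate blocks, a fit to 8 libraries and each library left out. Values of some genes and of 1 list are not reported here.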

Additional observations from a re-analysis of the deposited data

How the results depend on the processing

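Same-numbered libraries correlated at -0.16 over 10098 genes after group means were removed. With 2 libraries a group this is a single contrast, so it cannot show whether library numbers pair the samples. A replicate block by library number gave 4027 genes higher and 4085 lower, against 4120 and 4262 without it, and 89 opened and 17 closed. The crossed pairing, added after seeing the data, gave 4373 higher and 4491 lower. Most counts stayed within 1.5 times of those reported under DESeq2, its size factors, library totals, no filter, the blocks and 8 libraries. The exceptions follow, and their cause was not tested unless stated. DESeq2 called 11 genes closed. On 8 libraries, 42 genes were opened and 4 closed, where only genes shared by all tables enter. Testing only genes that average 50 or more normalised counts, 512 genes were at least 2-fold higher and 172 lower, since low genes leave, and opened genes could not be counted. A limit of 0.25 CPM left 18 opened and 1 closed, and one of 2 CPM left 14 and 0. Abundant genes numbered 1197 higher and 2261 lower at 50 CPM and 207 and 531 at 200 CPM. Leaving out 1 library, with the lone one left assumed to vary like the other group, gave 107 to 407 opened and 7 to 46 closed genes. Under library totals, medians were 0.30 and -0.054 in the lowest and highest of the 10 groups by level, and -7.7e-05 and 0.15 in the shortest and longest of the 5 by length. With 1 library left out, medians ran from 0.21 to 0.28 in the lowest group and from -0.14 to -0.11 in the highest. Among the tested genes that the naming rule admits, 43 changed call in at least 1 of 12 alternatives, 31 of them by DESeq2, and none turned direction while called. The balance of higher and lower members changed in 13 lists in at least 1 alternative. Promoter composition under other gene sets was not run, because too few opened genes had a promoter. Depth limits what was seen of genes under 0.5 CPM.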
